A study of Mus musculus with 9 samples.

Results

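Mouse embryonic fibroblasts that were reprogrammed while carrying a lentiviral Yes-associated protein (YAP) vector gave rise to 2 kinds of colony by day 75, and the RNA of these colony types was compared across all genes. YAP colonies were the non-pluripotent colonies marked by YAPmCherry and maintained with doxycycline (1 ug/mL) over feeder cells. YAP-culture induced pluripotent stem cells (iPSCs) were grown over feeder cells in the same ES cell medium, and for them the growth description names no doxycycline. Their genotype label reads Oct4:GFP+YAPmCherry+, whereas their titles state that YAP overexpression had been lost. Each group had 3 libraries, so 6 of the 9 libraries of the series entered the comparison, and the other 3, iPSCs from empty-vector cultures, are cited only as reference values. The values were FPKM (fragments per kilobase of transcript, scaled to sequencing depth), and 13675 of 48640 rows had a mean of at least 1 FPKM over the 6 libraries and were tested. The doxycycline given to the colonies, their fate and any difference between founder embryos cannot be told apart in this design.

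YAP is a transcriptional co-activator that is kept out of the nucleus by the kinases of the Hippo pathway, and that binds DNA through TEAD factors, often beside AP-1 factors. Fibroblasts on the way to pluripotency gain epithelial junctions, silence mesenchymal genes and take up a characteristic metabolism in which threonine breakdown feeds the folate cycle. Mouse pluripotent cells also keep Hox genes and Xist silent.

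In the colonies, 2246 rows (16.4% of those tested) were called higher and 1830 (13.4%) lower, 29.8% in all, with limma on log2(FPKM + 1). A call needed a Benjamini-Hochberg adjusted p under 0.05 together with a log2 difference of 1 or more in either direction. "Rose" and "fell" below mean called in this test, and log2 fold changes are colonies over YAP-culture iPSCs on that scale. The median over all tested rows was 0.05, and the median standard error (SE) was 0.17. For the called genes whose log2 fold change is given below, the SE was at most 0.45. The values of the 3 colony libraries and the 3 iPSC libraries did not overlap in 62.7% of tested rows. A gene near 0 in 1 group could pass the filter only through the other group, which limits every list count and median below. List counts are to be read beside these shares of 16.4% and 13.4%, and a count near them does not set a list apart. No label says whether the replicates came from different cultures, and the p-values then reflect the spread among these libraries alone, which may be technical. Libraries correlated at 0.966 to 0.978 within the colonies, 0.934 to 0.955 within the iPSCs and 0.728 to 0.754 between the groups. Replicate 3 of the iPSCs was closer to a control iPSC library (0.973) than to its own group (at most 0.944); without it 2562 rows were called higher and 1826 lower. Read depth is unknown, since FPKM sums of 509321 to 634471 per library are not read counts.

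The labels held in their main point. Nanog, a core pluripotency factor, was at 125, 114 and 158 FPKM in the colonies and at 326, 306 and 292 in the iPSCs. Pou5f1, which encodes Oct4, was at 280.4, 267 and 295 FPKM in the colonies and at 119, 134 and 213 in the iPSCs, and was not called (log2 fold change 0.89). Of 13 pluripotency markers 12 fell and none rose. Yap1 was at 60.9, 59.1 and 63.1 FPKM in the colonies against 39.1, 32.5 and 36.7 in the iPSCs, without overlap but below the fold threshold (log2 fold change 0.74). In the empty-vector control iPSCs Yap1 was at 45.8, 41.3 and 40.4 FPKM. How much vector transcript the Pou5f1 and Yap1 rows hold is not known. Zfp42 (also called Rex1), whose promoter holds the octamer that Oct4 recognises, separated the groups more sharply than Nanog did, with 0.546, 0.191 and 0.328 FPKM in the colonies against 289, 262 and 297 in the iPSCs. The window around its start site (RefSeq, GRCm38.p6, chr8:43306960-43307259, minus strand, from 250 bases before to 50 after the start) is printed with the octamer ATGCAAAT, here on the opposite strand, in capitals.
Zfp42: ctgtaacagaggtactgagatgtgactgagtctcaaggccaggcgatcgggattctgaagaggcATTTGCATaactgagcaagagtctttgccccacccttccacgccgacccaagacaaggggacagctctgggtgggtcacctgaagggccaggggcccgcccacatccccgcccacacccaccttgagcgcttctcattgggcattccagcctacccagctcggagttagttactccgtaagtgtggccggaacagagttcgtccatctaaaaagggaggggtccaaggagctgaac
The octamer was in 1.74% of all promoter windows, 1.24% of those of tested protein-coding genes, 1.16% of those of genes that fell and 1.97% of those of genes that rose.

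Y-linked transcripts and Xist divided the groups. Eif2s3y, a Y-linked translation factor gene, was at 0.373, 0 and 0.0218 FPKM in the colonies and at 64.5, 69.9 and 50.4 in the iPSCs. Ddx3y, a Y-linked RNA helicase gene, was at 0.0691, 0.021 and 0 FPKM in the colonies and at 20.6, 16.7 and 14.8 in the iPSCs. The control iPSCs also carried both, at means of 40.9 and 9.91 FPKM. Uty and Zfy1, the other tested Y-linked genes, fell as well, so all 4 tested members were lower, and Kdm5d, Usp9y and Zfy2 were below the filter. The Xist RNA, by which an X chromosome is silenced, went the other way, at 203, 147 and 148 FPKM in the colonies against 0.849, 1.66 and 0.77 in the iPSCs (log2 fold change 6.32 ± 0.21 SE, adjusted p = 3.34e-06 in limma). No colony library had as much Y-linked RNA as any iPSC library, and every colony library had more Xist. The median log2 fold change of 409 protein-coding rows on the X chromosome was 0.19. Embryo of origin, sex chromosomes and colony type cannot be told apart for any gene that follows.

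Genes of chromosome 1 were shifted upward as a block in the colonies. Across its 634 tested protein-coding rows the median log2 fold change was 0.66 and 77.6% of rows were above 0, while the medians of the other autosomes ran from -0.2 to 0.25 and their shares above 0 from 40.9% to 59.7%. Of the chromosome 1 rows 34.9% rose and 7.89% fell, against 18.3% and 13.5% of all tested protein-coding rows. Set against the mean of the control iPSCs, which the comparison did not use, the median chromosome 1 difference was 0.67, 0.70 and 0.68 in the 3 colony libraries and 0.09, 0.00 and 0.05 in the 3 YAP-culture iPSC libraries. Every colony library lay above every iPSC library by this measure, and on the other autosomes the colony medians stayed between -0.38 and 0.24. It ran along the whole chromosome: the medians of 10 successive windows of 20 Mb, each with at least 20 rows, lay between 0.49 and 0.81. With a per-library correction for transcript GC content, an alternative chosen after seeing the data, the median was 0.61 and the other autosomes lay between -0.29 and 0.16. With no filter on low values, which adds rows at or near 0, the chromosome 1 median was 0.24. DNA was not analysed here. Chromosome 4 had the lowest autosomal median, -0.20, with a median of -0.95 over the 148 rows of its last window and values between -0.24 and 0.36 in its other windows.

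**Figure D1:**
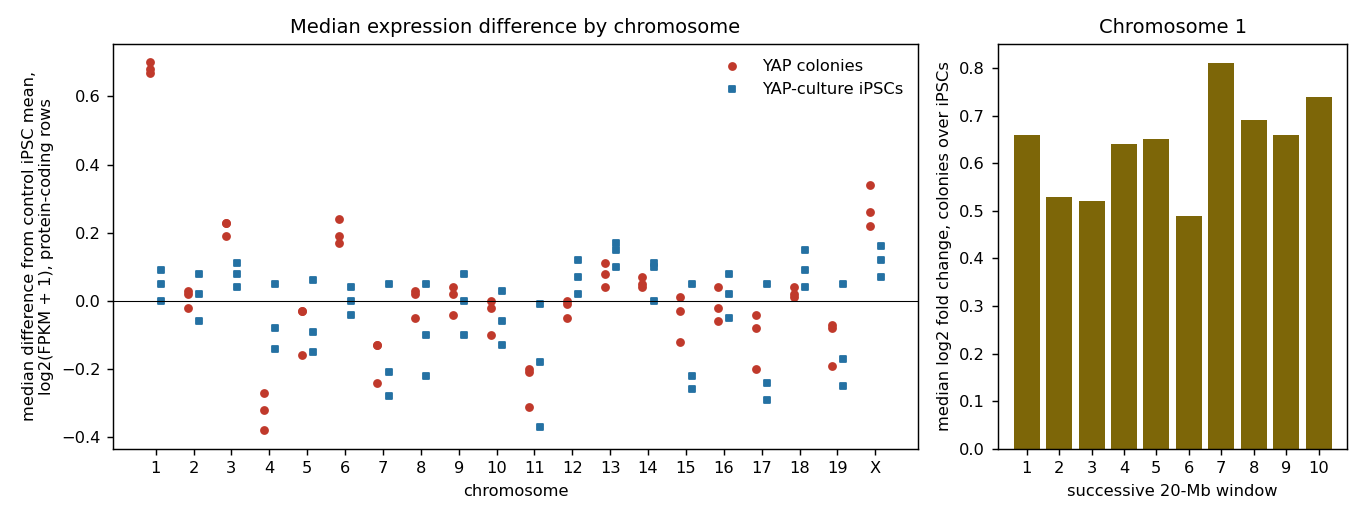
Left, median difference of protein-coding rows from the mean of the control iPSCs in log2(FPKM + 1), by chromosome, with 1 point for each colony library (circles) and YAP-culture iPSC library (squares); on chromosome 1 the colonies sit at 0.67 to 0.70 and the iPSCs at 0.00 to 0.09. Right, median log2 fold change of colonies over YAP-culture iPSCs in successive 20-Mb windows of chromosome 1, all of which lie between 0.49 and 0.81.

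Among 37 tested subunits of the mitochondrial respiratory chain 3 rose and 4 fell, with a median of 0.02. Over all tested rows 16.4% rose and 13.4% fell. The number of these subunits that rose was 0 without iPSC replicate 1, 6 without iPSC replicate 3 and 1 without colony replicate 1 or 3. The 5 encoded on chromosome 1 had a median of 0.87, the lowest at 0.58, and the 32 encoded elsewhere a median of -0.05, of which 3 were above the lowest chromosome 1 member. This split of the list was made after its values were seen. Cox5b, a complex IV subunit gene on chromosome 1, rose (1.02). Cox6b2, a testis-type subunit gene on chromosome 7, had the largest rise of the list (1.59), which missed the test without colony replicate 1 or 3 or iPSC replicate 1 (adjusted p from 0.0626 to 0.0711 in limma). Of the subunits that fell, Cox7a1 and the testis cytochrome gene Cyct changed most, by -2.98 and -2.94. Several genes named further on lie on chromosome 1, among them Sulf1, Bcl2, Tgfb2, Hes6 and Map2, whose changes were larger than the shift, and Des and Igfbp2, which fell.

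Hox genes, which give cells their position along the body axis, were expressed in the colonies and nearly silent in the iPSCs. All 25 tested Hox genes rose, with a median log2 fold change of 2.22 and no overlap between the groups; the other 14 of 39 did not pass the filter, which a gene silent in the iPSCs could pass only through the colonies. With a pseudocount of 5 and with a minimum of 5 FPKM, 10 and 6 Hox genes rose. Hoxa10 was at 25.4, 19.6 and 21.4 FPKM in the colonies and listed at 0 in the 3 iPSC libraries. Hoxa9 was at 15.1, 24.3 and 24.3 FPKM against 0.0185, 0.0964 and 0.0481 (log2 fold change 4.37 ± 0.20 SE, adjusted p = 9.81e-06 in limma). Posterior and middle genes led, with Hoxc6 at a colony mean of 16.8 FPKM and Hoxc10 at 16.1. All 4 clusters took part, and the most posterior tested genes, Hoxc13 and Hoxb13, rose by 2.32 and 1.29. The Hox list held 0.0352% of all FPKM in the colonies against 0.00126% in the iPSCs (exact permutation p = 0.1, two-sided, the smallest that 3 against 3 allows). The list was written with earlier results of these data known, so this share is a description.

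**Figure D2:**
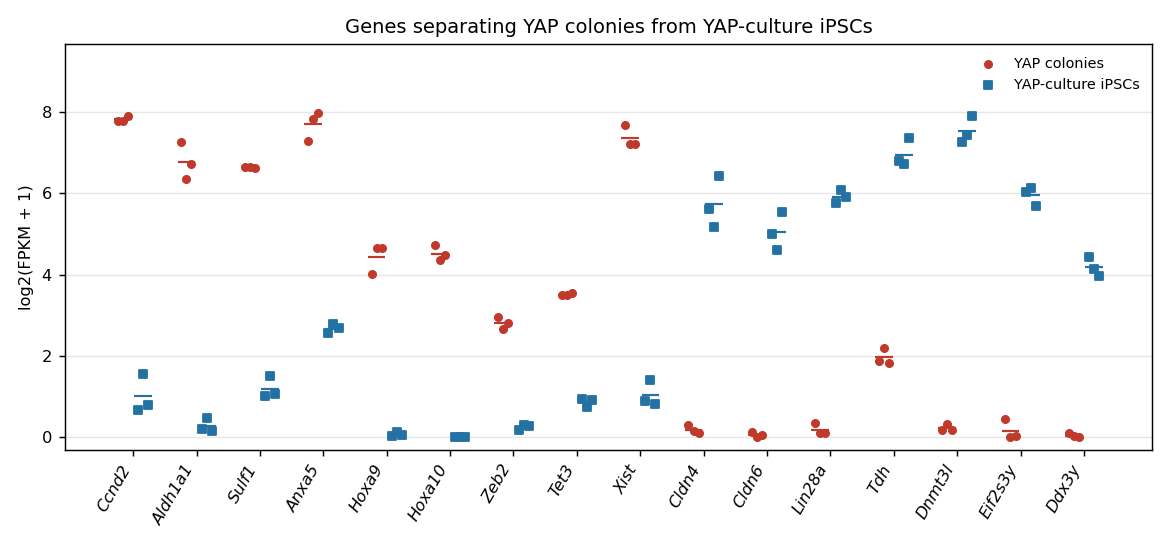
Expression in log2(FPKM + 1) of 16 genes in each colony library (circles) and each YAP-culture iPSC library (squares), with short lines at group means. For each gene shown the 3 circles and the 3 squares do not overlap; Ccnd2 to Xist are higher in the colonies and Cldn4 to Ddx3y lower.

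Tight junctions, which seal epithelia, had lower RNA for most tested components in the colonies. Of 15 tested genes 10 fell and 1 rose, with a median of -1.18. With a pseudocount of 5, with treat (limma's test against a minimum fold change) and with a minimum of 5 FPKM, 3, 4 and 6 of them were called lower, and none higher with the first and the last of these. The other 11 of 26 listed genes did not pass the filter, which a gene near 0 in the colonies could pass only through the iPSCs. Cldn4, a claudin that forms the sealing strands, was at 0.241, 0.11 and 0.0783 FPKM in the colonies against 48.5, 34.9 and 85.5 in the iPSCs. Cldn6, the claudin of early embryonic epithelium, was at 0.099, 0 and 0.0483 against 30.8, 23.4 and 45.5 FPKM. Cldn11, the claudin of myelin and Sertoli cells, was the member that rose, at 3.73, 4.53 and 3.75 against 0.167, 0.0882 and 0.0868 FPKM. The scaffold gene Tjp1 had a log2 fold change of 0.08 and was not called. Of 14 tested cadherins, nectins and catenins 6 rose and 1 fell; the number that fell was 2 without colony replicate 2, 3 without iPSC replicate 2 and 3 with the GC correction, and 3 rose with a pseudocount of 5 or a minimum of 5 FPKM. Cdh1 (E-cadherin) fell from a mean of 77.3 to 14.8 FPKM. Cdh2 (N-cadherin) was at 12.1, 12.8 and 12.0 FPKM in the colonies against 0.281, 0.467 and 0.234 in the iPSCs, and Cdh13, a lipid-anchored cadherin, rose most, by 4.89. For Cdh1, Cdh2 and Cdh13 the groups did not overlap.

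Of 11 tested regulators of the epithelial and mesenchymal states 4 rose and 4 fell. Zeb2, an E-box-binding repressor of epithelial genes, was at 6.83, 5.34 and 6.05 FPKM in the colonies against 0.142, 0.226 and 0.217 in the iPSCs, and its relative Zeb1 rose by 1.67. Klf5, an epithelial Krüppel-like factor, fell from a mean of 33.6 to 1.70 FPKM, and Grhl2, Ovol2 and the epithelial splicing factor gene Esrp1 fell too. Esrp1 was listed at 0 in all 3 colony libraries. Ehf, an epithelial ETS factor, went against these and rose by 3.23. Snai1, Snai2 and Twist1 were below the filter, with colony means of at most 0.26 FPKM.

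The recognition sequence of the ZEB and Snail factors, the E-box CACCTG, was frequent in the promoters of these junction genes. Windows from 250 bases before to 50 after the start were found for 8747 of 11299 tested protein-coding symbols. The E-box, on either strand, was in some window of 77.8% of the 9 tight junction genes that fell and had a window, 29.3% of 1122 genes that fell, 20.5% of 1533 that rose, 19.3% of 6092 not called and 22.6% of all 27025 genes in the reference. Tested tight junction genes as a whole had it in 61.5% of 13. The windows of the 2 claudin genes with the largest fall are shown (RefSeq, GRCm38.p6; Cldn4 at chr5:134946885-134947184, minus strand, Cldn6 at chr17:23679115-23679414, plus strand), with the E-box or its reverse complement CAGGTG in capitals.
Cldn4: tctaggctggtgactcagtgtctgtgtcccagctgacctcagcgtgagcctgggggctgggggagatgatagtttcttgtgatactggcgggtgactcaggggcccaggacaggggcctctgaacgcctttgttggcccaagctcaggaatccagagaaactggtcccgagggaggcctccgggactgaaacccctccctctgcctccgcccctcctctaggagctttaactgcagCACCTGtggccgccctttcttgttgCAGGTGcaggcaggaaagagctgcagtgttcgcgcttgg
Cldn6: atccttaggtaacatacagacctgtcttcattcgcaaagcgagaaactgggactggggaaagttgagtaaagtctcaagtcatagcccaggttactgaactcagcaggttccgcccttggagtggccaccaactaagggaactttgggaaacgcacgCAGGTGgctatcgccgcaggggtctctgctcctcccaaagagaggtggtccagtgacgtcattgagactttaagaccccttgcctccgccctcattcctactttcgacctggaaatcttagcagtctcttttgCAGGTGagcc
Each holds a pair of matches, beginning 14 bases before and 11 after the start in Cldn4, and 93 before and 40 after it in Cldn6. A match describes the letters only, and binding was not measured.

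**Figure D3:**
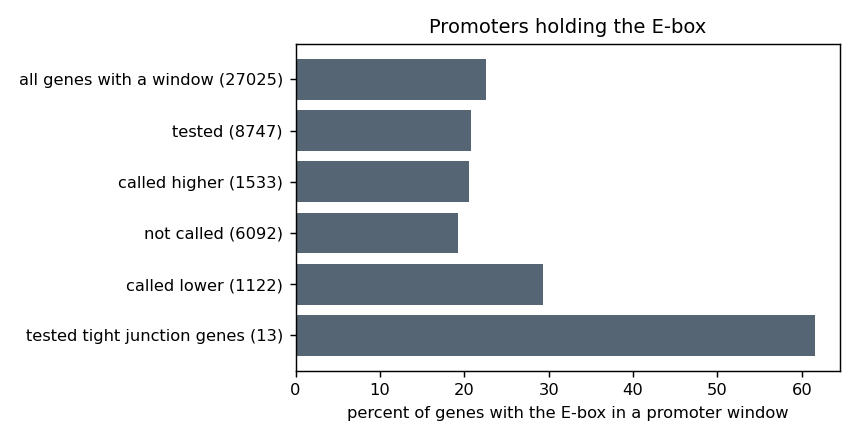
Share of genes, in percent, with the E-box CACCTG on either strand in some promoter window, with the number of genes in brackets. Genes that fell stand at 29.3%, the other call classes at 19.3% and 20.5%, and the tested tight junction genes at 61.5%.

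Of 14 tested basement membrane genes 8 rose and 3 fell, with a median of 1.27. Of 17 tested matrix proteases and inhibitors 5 rose and 4 fell, with a median of 0.10. Lamb1, a laminin chain, was at 105, 103 and 108 FPKM in the colonies against 19.8, 20.9 and 25.9 in the iPSCs. Lama4, a laminin chain of vessels and muscle, rose by 3.77, and the type IV collagen genes Col4a1 and Col4a2 by 3.93 and 4.04. Lama3, a chain of the laminin of stratified epithelia, fell, as did the linker gene Nid2 (-2.33). Of 15 other tested collagens 10 rose and 1, Col9a2, fell, while 3 rose with a pseudocount of 5 or a minimum of 5 FPKM. Col15a1, a collagen of the zone beneath basement membranes, was at 33.7, 29.1 and 27.7 FPKM against 0.468, 0.19 and 0.463. The fibrillar genes Col1a1 and Col3a1 rose but stayed at colony means of 2.60 and 2.95 FPKM. Among 10 tested integrins 6 rose, led by Itgb4 (3.15) and Itgb5 (1.72), and Itga3 and Itga6 fell by 1.86 and 1.62.

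Fibroblast markers moved with these genes, and their part in the matrix result was not tested. Col1a1 and Col3a1, given above as collagens, are on this marker list too, so its count is not independent of the matrix counts. Of 8 tested members 7 rose, and the 15 markers summed to 58.0 to 67.4 FPKM in the colonies against 8.33 to 13.2 in the iPSCs. Fbn1, a microfibril protein gene, had means of 11.7 against 0.223 FPKM, and Dcn, a collagen-binding proteoglycan gene, of 8.63 against 0.377. Below the filter, Pdgfra, Lum, Twist2, Prrx1 and Fap had colony means of 0.232, 0.0797, 0, 0.39 and 0.0834 FPKM. In bulk RNA, fewer cells of a type and less RNA per cell cannot be told apart. Among smooth muscle genes Acta2 rose by 5.71. Tagln, an actin-bundling gene, was at 58.6, 57.6 and 49.7 FPKM and listed at 0 in every iPSC library, which can be a failed estimate. Myh11, Cnn1 and Myocd were at colony means of at most 0.0589 FPKM, and Des fell by 3.37.

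Membrane-associated calcium-binding proteins and heparan sulfate enzymes formed further groups with high colony values. Of 17 tested annexin and S100 genes 12 rose and 3 fell, with a median of 1.99. Anxa5, which binds phosphatidylserine, was at 157, 228 and 251 FPKM in the colonies against 4.91, 5.88 and 5.42 in the iPSCs. S100a6, a calcium sensor of growing cells, was at 577, 1127 and 738 against 30.5, 41.5 and 39.2. S100a13 ran against the group and fell by 4.47. Together these genes took up 0.416% of all FPKM in the colonies against 0.0624% in the iPSCs (exact permutation p = 0.1, the smallest possible). Other lists, such as Polycomb and WNT, reached the same p in that test. The lists were written with earlier results of these data known, so the share is a description. Of 21 tested genes for heparan sulfate proteoglycans and their enzymes 13 rose and 1 fell. Sulf1, which trims sulfate groups from heparan sulfate, was at 100.2, 99.6 and 97.9 FPKM against 1.03, 1.85 and 1.08 (log2 fold change 5.45 ± 0.15 SE, adjusted p = 2.16e-06 in limma). Sdc4, a syndecan core protein, was the member that fell (-2.46). Of 8 tested caveola genes 6 rose, with Ptrf, a coat protein of these membrane pits, at a mean of 75.0 against 3.83 FPKM; 3 rose with a pseudocount of 5 or with treat, and 1 with a minimum of 5 FPKM.

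AP-1 transcription factors, which bind DNA as pairs of Jun and Fos proteins, were mostly higher. Of 11 tested members 8 rose and none fell, with a median of 1.47, and 3, 4 and 5 rose with a pseudocount of 5, with treat and with a minimum of 5 FPKM. Jun was at 38.3, 39.6 and 40.4 FPKM in the colonies against 2.56, 1.90 and 3.05 in the iPSCs. Fosb was at 62.5, 44.1 and 46.9 against 6.04, 5.23 and 6.86 FPKM, and Fos rose from a mean of 31.7 to 138. The libraries of both groups were far apart for each of these genes. The AP-1 search pattern TGANTCA, in which N is any base, matched 4.88% of windows of genes that rose and 5.6% of genes that fell. It matched 4.67% of those tested and 7.81% of all windows. The TEAD site CATTCC was in 14.8%, 13.5%, 11.9% and 14.7%, respectively. Shown are the windows of Emp1 and Acta2, both RefSeq, GRCm38.p6. Emp1, a membrane protein gene, was at 371, 513 and 513 FPKM in the colonies against 5.50, 9.92 and 5.95 in the iPSCs. Its window (chr6:135362681-135362980, plus strand) has the pattern matches TGAGTCA and TGATTCA in capitals. Acta2, smooth muscle actin, was at 92.3, 78.4 and 64.1 FPKM against 0.212, 0.56 and 0.779. Its window (chr19:34255324-34255623, minus strand) has the TEAD site on the opposite strand in capitals.
Emp1: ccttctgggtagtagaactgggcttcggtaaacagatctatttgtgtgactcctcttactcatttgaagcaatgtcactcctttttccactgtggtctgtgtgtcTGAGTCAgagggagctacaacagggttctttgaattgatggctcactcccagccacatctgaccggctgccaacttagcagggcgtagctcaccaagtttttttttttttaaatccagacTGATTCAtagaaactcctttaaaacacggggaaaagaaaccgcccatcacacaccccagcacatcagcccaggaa
Acta2: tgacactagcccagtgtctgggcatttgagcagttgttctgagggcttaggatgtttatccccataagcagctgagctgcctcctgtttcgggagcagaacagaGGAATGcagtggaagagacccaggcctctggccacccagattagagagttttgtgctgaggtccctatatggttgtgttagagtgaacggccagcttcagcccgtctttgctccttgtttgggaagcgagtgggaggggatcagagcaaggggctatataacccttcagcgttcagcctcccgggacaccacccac
Matches to either motif describe the letters of these windows only. Whether each match to TGANTCA is an AP-1 site was not tested.

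Signalling genes changed in both directions, with several ligands of the early embryo lower. In the TGF-beta, Nodal and BMP list 18 of 40 tested genes rose and 9 fell (median 0.90). Over all tested rows 16.4% rose and 13.4% fell. Among ligands, Nodal, Gdf3, Lefty2 and Bmp4 fell, and Tgfb2 was at 17.9, 10.6 and 11.6 FPKM in the colonies against 0.189, 0.0444 and 0.0297 in the iPSCs. Tgfb3 and the receptor genes Acvr1, Bmpr2 and Tgfbr2 rose, while the inhibitor gene Smad7 fell by 2.90. Fstl1, a secreted BMP antagonist, had the largest rise of the list, at 266, 271 and 262 FPKM against 14.8, 17.2 and 15.6. In the FGF list of 20 genes 9 rose and 3 fell: Fgf4, the autocrine ligand of pluripotent cells, fell by 3.29 and the feedback inhibitor gene Spry2 by 1.85, while Fgfr1, Fgf18 and the early-response gene Egr1 rose by 2.54, 2.32 and 3.38.

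The WNT list of 27 genes had 9 higher and 5 lower, beside 16.4% and 13.4% of all tested rows. Lef1 rose by 2.77 and its relative Tcf7 fell by 3.15, both DNA-binding partners of beta-catenin. Axin2, a common target of the pathway, fell from a mean of 1.77 to 0.255 FPKM, and Wnt5a, a ligand that acts mostly without beta-catenin, rose by 1.92. In the Notch list of 19 genes 8 rose and 1 fell. Lfng, a glycosyltransferase that tunes Notch, was at 11.6, 17.6 and 22.9 FPKM against 0.319, 0.418 and 0.414, and Hes6, Jag1 and Notch2 rose by 3.20, 2.35 and 2.06. Rbpj, the DNA-binding partner of Notch, was the member that fell (-1.89). Of 38 ephrin, semaphorin, netrin and slit genes, known for guiding axons and cells, 17 rose and 2 fell (5 without iPSC replicate 2, and 1 without colony replicate 3 or iPSC replicate 3), led by Efnb1 at 44.6, 40.9 and 34.3 FPKM against 0.713, 1.75 and 1.36.

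Growth factor and cytokine genes were mixed. Gas6, a vitamin K-dependent ligand, and its receptor gene Axl rose by 4.06 and 3.71, and Igf1r and Pdgfb by 2.37 and 3.02, among 7 of 25 that rose. Vegfa, Igfbp2, Erbb3, Hbegf and Kit were the 5 that fell. In the LIF and STAT3 list of 19 genes 4 rose and 5 fell, beside 16.4% and 13.4% of all tested rows. Stat3 was at 37.8, 36.0 and 39.2 FPKM against 11.6, 9.94 and 15.5, while its target Pim1 fell by 2.36. Among 11 cytokines 6 rose, including Tnfsf9 (3.76) and Ccl7 (3.36), and Spp1 fell by 4.27. B2m, the light chain of MHC class I, was at 179, 186 and 179.8 FPKM against 25.1, 24.9 and 28.3, while the classical heavy chain genes H2-K1 and H2-D1 had log2 fold changes of -0.28 and 0.03 and were not called.

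**Figure D4:**
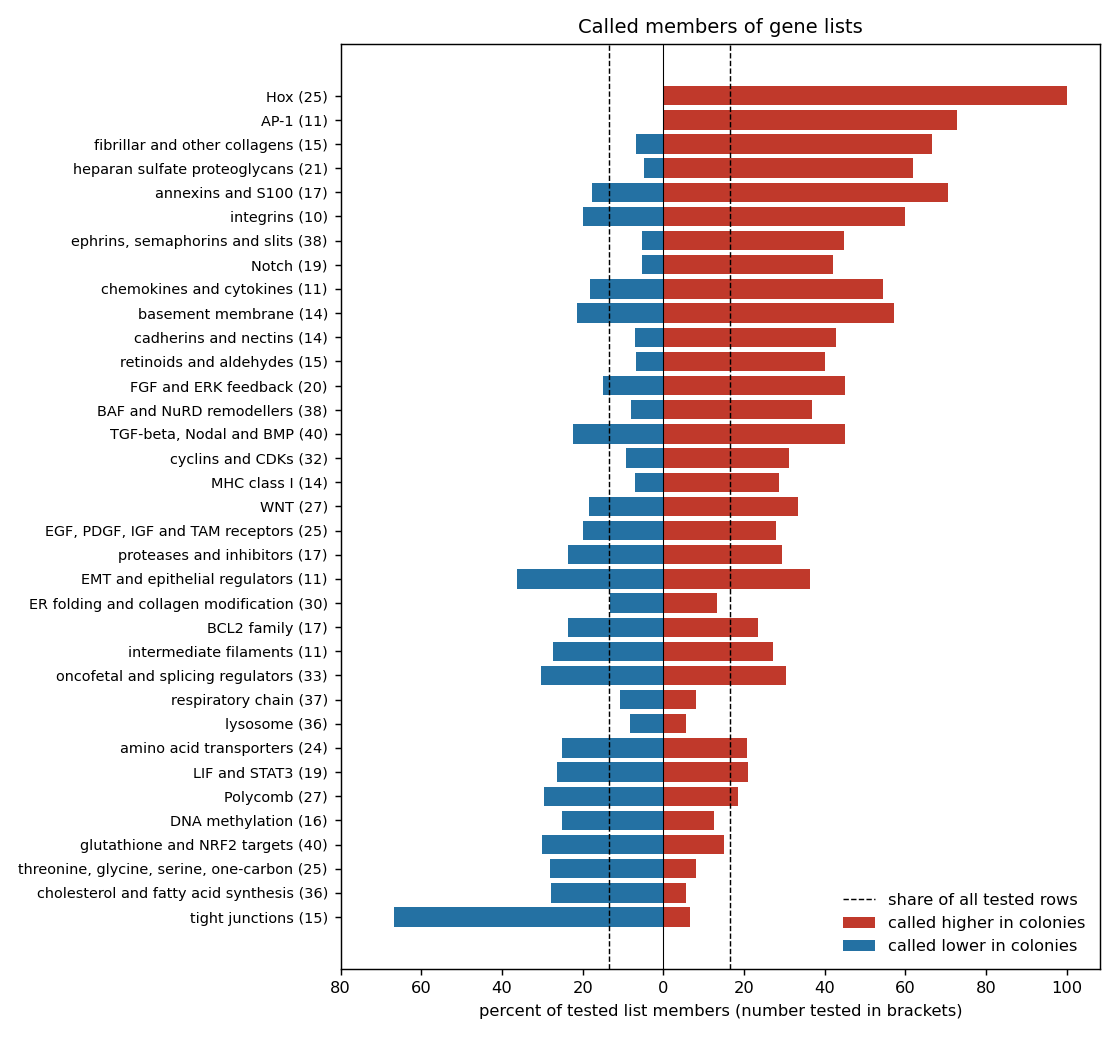
Percent of tested members of each gene list called higher (right) and lower (left) in the colonies, with the number tested in brackets; dashed lines mark the 16.4% and 13.4% of all tested rows. Hox genes stand at 25 of 25 higher and tight junction genes at 10 of 15 lower, while lysosome and respiratory chain genes lie below the dashed lines.

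Among chromatin regulators, members of the same family or complex differed in direction. Among enzymes that oxidise methylated DNA, Tet1 was at 3.76, 2.78 and 3.32 FPKM in the colonies against 39.0, 36.3 and 33.9 in the iPSCs, and Tet2 fell by 1.62. Tet3, the remaining family member, was at 10.3, 10.3 and 10.7 against 0.928, 0.689 and 0.881 FPKM (log2 fold change 2.64 ± 0.12 SE, adjusted p = 8.29e-06 in limma). Dnmt3l and Dnmt3b, of the de novo methylation machinery, fell by 7.31 and 3.12, and the maintenance enzyme gene Dnmt1 had 0.06 and was not called. Of 27 tested Polycomb genes 5 rose and 8 fell (median 0.03), beside 16.4% and 13.4% of all tested rows. Mtf2 and Eed of the complex that methylates histones fell by 2.44 and 1.78, as did Suz12, at 37.4, 41.5 and 38.9 FPKM against 126, 93.5 and 80.3, while its catalytic subunit gene Ezh2 had -0.02. Cbx7 fell from a mean of 33.3 to 9.16 FPKM, and its paralog Cbx2 and the ring-finger gene Bmi1 rose by 1.19 and 2.39.

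Of 38 tested genes of the BAF and NuRD nucleosome remodellers 14 rose and 3 fell. Smarca2, the alternative ATPase of BAF, was at 20.4, 19.1 and 18.8 FPKM in the colonies against 1.22, 1.68 and 0.807 in the iPSCs, while Smarca4, the ATPase of embryonic stem cells, overlapped between groups and was not called (0.58). Dpf1 and Dpf3, the BAF subunits of neurons and muscle, rose by 2.20 and 2.32, their paralog Dpf2 had -0.26, and Actl6a, the progenitor form of the actin-like subunit, fell by 1.26. Bcl11a, a zinc-finger BAF subunit, was at 27.2, 23.6 and 25.1 FPKM against 0.1, 0.126 and 0.186. Neural genes moved beside these: of 5 tested markers all rose, among them Map2 and Pax6, and the neuronal RNA-binding gene Elavl4 rose by 2.98, while Sox1, Dcx and Rbfox3 were below the filter at colony means of at most 1.33 FPKM.

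**Figure D5:**
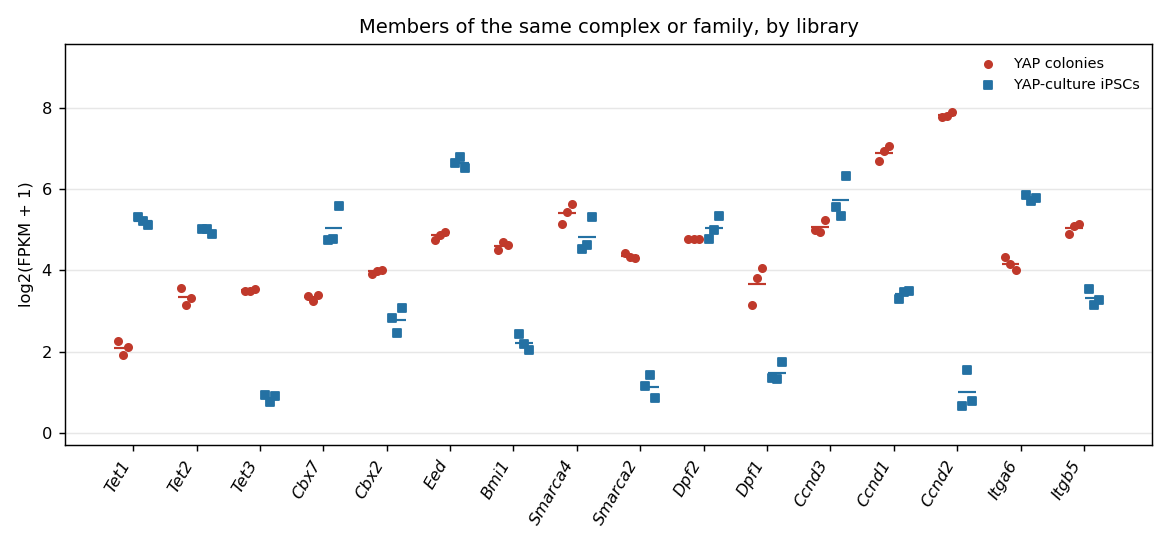
Expression in log2(FPKM + 1) of related subunits or family members in each colony library (circles) and YAP-culture iPSC library (squares), with short lines at group means. Tet1 and Tet2 are lower and Tet3 higher in the colonies, Cbx7 lower and Cbx2 higher, and Ccnd1 and Ccnd2 higher while Ccnd3 is not called.

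RNA-binding regulators also differed by member, with 10 of 33 higher and 10 lower. Lin28a, which blocks let-7 maturation, was at 0.283, 0.072 and 0.0769 FPKM in the colonies against 53.0, 67.2 and 59.2 in the iPSCs. Dazl, a germ cell translation regulator, fell by 3.76. Mbnl1, a splicing factor that promotes differentiated isoforms, was at 19.6, 19.1 and 16.4 against 2.04, 2.17 and 1.83 FPKM. Lin28a was thus near 0 in every colony library, whereas the related oncofetal genes Hmga1 and Igf2bp2 had log2 fold changes of 0.28 and 0.21 and were not called.

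D-type cyclins and the survival gene Bcl2 stood out among growth genes. Ccnd2 was at 218, 221 and 240.0 FPKM in the colonies against 0.584, 1.94 and 0.739 in the iPSCs (log2 fold change 6.82 ± 0.24 SE, adjusted p = 3.82e-06 in limma). Ccnd1 was at 102, 121 and 132 against 8.83, 10.1 and 10.3 FPKM, while Ccnd3 had -0.67 and was not called. The kinase partners Cdk4 and Cdk6 rose by 1.40 and 1.76. In all, 10 of 32 tested cyclin, CDK, E2F and RB genes rose and 3 fell, with Ccnf at -1.83 and E2f8 listed at 0 in all 3 colony libraries. Bcl2, the founding survival gene of its family, was at 13.7, 14.6 and 15.1 FPKM against 0.104, 0.145 and 0.0693. In the same family Bbc3, a death-promoting gene, also rose (1.67), a call that was lost when any of 4 libraries was left out, with values between 1.34 and 1.66 (adjusted p between 0.0566 and 0.0759 in limma), and Bnip3 fell by 2.31.

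Genes of threonine and glycine breakdown fell. Tdh, the threonine dehydrogenase on which mouse pluripotent cells depend, was at 2.70, 3.56 and 2.56 FPKM in the colonies against 109, 105 and 163 in the iPSCs. Amt, Gldc and Gcsh, of the glycine cleavage system that follows it, fell by 3.41, 2.40 and 1.48, and the mitochondrial folate enzyme gene Mthfd2 by 2.62. Of 25 tested genes of threonine, glycine, serine and folate metabolism 7 fell and 2, Mtr and Mthfd2l, rose (median -0.59). Asns, which makes asparagine and is a target of Atf4, was at 51.2, 56.3 and 49.7 against 443, 473 and 414 FPKM, and Atf4 itself fell by 1.61. Of 36 genes of cholesterol and fatty acid synthesis 10 fell and 2 rose, with a median of -0.55. Msmo1, Fdps and Insig1 fell by 2.19, 1.37 and 1.53, and Scd2, a fatty acid desaturase, rose by 1.66. The second that rose, Elovl1, was listed at 0 in every iPSC library, which can be a failed estimate.

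Detoxifying enzymes were divided among paralogs. Of 40 tested genes of glutathione metabolism and the NRF2 response 12 fell and 6 rose (median -0.37). Over all tested rows 13.4% fell and 16.4% rose, so the number that rose does not set this list apart. Nfe2l2, which encodes NRF2, was at 13.5, 13.4 and 13.5 FPKM in the colonies against 43.7, 40.4 and 42.1 in the iPSCs, and its targets Nqo1, Hmox1 and Srxn1 fell by 1.56, 1.63 and 1.74. Mgst1, a microsomal glutathione transferase, was at 97.8, 63.8 and 62.4 against 0.927, 1.69 and 2.17 FPKM, and Gstm5 rose by 4.17 while Gstm2 fell by 2.83. Gstm genes are close paralogs, and reads shared between them cannot be told apart in this unit. Aldh1a1, which makes retinoic acid, was at 153, 80.8 and 105 FPKM against 0.151, 0.397 and 0.118 (log2 fold change 6.50 ± 0.24 SE, adjusted p = 4.36e-06 in limma). Of the retinoic acid-binding genes Crabp2 rose by 2.96 and Crabp1 fell by 1.22, among 6 of 15 that rose and 1 that fell. Of 36 lysosomal genes 2 rose and 3 fell (5 fell without iPSC replicate 1), beside 16.4% and 13.4% of all tested rows.

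The 10 called protein-coding genes with the largest gain in FPKM (S100a6, Vim, Emp1, Myc, Ptms, Ifitm3, Tuba1a, Gnas, S100a10 and Ybx3) made up 0.824%, 1.16% and 1.11% of all FPKM in the colonies against 0.119%, 0.115% and 0.147% in the iPSCs. The 10 with the largest loss (Dppa5a, Spp1, Hsp90aa1, Ftl1, Eif4a2, Rpl22, Asns, Rhox5, Tdgf1 and Aldoa) made up 0.239%, 0.251% and 0.245% against 1.79%, 1.84% and 1.80%. Both sets were chosen on these libraries, so the shares are a description. Ftl1, the ferritin light chain, was unevenly expressed within the iPSCs, at 546, 483 and 1270 FPKM, and its call was lost without colony replicate 1 (log2 fold change -1.35, adjusted p = 0.0591 in limma). Rpl28, a ribosomal protein gene of every cell, was at 95.2, 23.98 and 99.0 FPKM in the colonies but 0 in each iPSC library, so an exact 0 does not show absence, and 245 rows that fell were listed at 0 in all 3 colony libraries and 86 that rose in all 3 iPSC libraries.

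Markers of other lineages were mixed. The primitive endoderm genes Lamb1, Col4a1, Sparc and Dab2 rose, as 4 of 4 tested, and the other 9 of 13 were below the filter. Lamb1 and Col4a1 were also given above as basement membrane genes, so this count is not independent of that list. Gata6, Sox17, Sox7 and Foxa2 were at colony means of at most 0.0287 FPKM. Among 5 endothelial genes Tek and Ecscr rose and Pecam1, Eng and Vwf fell, with Cdh5 and Kdr below the filter. The 3 tested trophoblast genes, Tfap2c, Plet1 and Eomes, fell, and the other 9 of 12 did not pass the filter. Eomes was also the only tested early mesoderm gene of 10. At means of 0.0774 FPKM in the colonies against 2.88 in the iPSCs, it could pass the filter only through the iPSCs. Laptm5 rose and Cd68, Cd74 and Lyz2 fell among leukocyte genes (Cd74 missed the test without colony replicate 3, adjusted p = 0.0502 in limma), with Ptprc at a colony mean of 0.027 FPKM. Among 4 neural crest genes Tfap2a and Ets1 rose and Erbb3 fell, and Sox10 was below the filter.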

How the data were processed

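RNA was extracted with Trizol and made into stranded mRNA libraries, per the labels' protocols. TopHat, Cufflinks and mm10 appear in the submitters' processing notes, and their settings are not given in the sources used here. The table that the authors deposited holds an FPKM for each gene in each library. Gene symbols that a spreadsheet had turned into dates (27 rows) were restored through the identifiers, 99.3% of which were in GENCODE M21. The 13675 rows were tested on log2(FPKM + 1) with limma 3.58.1 under R 4.3.3, with 2 group means and a trended variance prior. Fold changes understate the change of low genes. Pseudogene rows held 39.4% to 50.8% of FPKM in the 6 libraries, and how reads were divided between them and their parent genes is not known.

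The comparison, the gene lists and the rule for named genes were chosen with earlier results of these data known. The rule took 6 fixed genes, the 10 largest changes each way in FPKM and in fold, and 2 called members each way of each list. Other genes given with values were chosen after their values were seen. Lists got counts and medians, with no test. Shares of FPKM were compared with an exact two-sided permutation test.

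On simulated data with 200 changed rows of 13675, 28% of changes of 1, 66% of 1.5, 98% of 2 and 98% of 3 (log2) were recovered, with 4 false calls. The changed rows were drawn only from rows with a mean log2(FPKM + 1) above 2, and the noise was normal. The real comparison called 4076 rows, so these figures do not carry over to low rows or to its number of false calls. Alternatives were pseudocounts of 0.1 and 5, no filter or a minimum of 5 FPKM, median-ratio and quantile scaling, all 9 libraries, a replicate block, no variance trend, treat, and each library left out; those chosen after seeing the data were protein-coding rows rescaled to equal totals, a per-library loess correction on GC content and rows of chromosomes 1, X and Y left out. Some genes are not reported here.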

Additional observations from a re-analysis of the deposited data

How the results depend on the processing

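Against 4076 called rows (2246 higher, 1830 lower), 2088 (1144 and 944) were called with a pseudocount of 5, 2456 (1423 and 1033) with a minimum of 5 FPKM, which tested fewer rows, and 2196 (1178 and 1018) with treat. The other settings gave between 3573 (rows of chromosomes 1, X and Y left out) and 4656 (pseudocount 0.1). The chromosome 1 median of 0.66 was 0.72 with a pseudocount of 0.1, 0.46 with 5, 0.24 with no filter and 0.57 with median-ratio scaling; no setting run reversed it, and the cause of these differences was not tested. On protein-coding rows alone the 10 largest gains held 1.78% of FPKM in the colonies against 0.24% in the iPSCs, and the 10 largest losses 0.424% and 3.45%. Leaving out a library gave 3908 to 4388 called rows (2064 to 2562 higher, 1759 to 1881 lower) and a chromosome 1 median of 0.62 to 0.69. Same-numbered libraries shared only a number (correlations of deviations 0.071, -0.022 and 0.187), and with a replicate block 4087 rows were called. Of 1862 counts of list members called higher or lower under another setting, 1703 were within 1.5 times the count given. No named gene changed direction under any setting run. Most were named for large changes in these same libraries, so a reversal was unlikely from the start and its absence is no support. Of 185 named genes, 20 lost their call with a pseudocount of 5, 27 with treat and 7 when some library was left out (among them Bbc3, Cd74, Cox6b2, Ftl1, Mbd1 and Sema6c), and Pou5f1 was called with quantile scaling (1.03) and without iPSC replicate 3 (1.14). Read depth is unknown, so precision at low FPKM was not estimated from counts.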
